A study of Mus musculus with 11 samples.

Results

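Methylation was followed at 1044 stretches of the mouse genome, each a fixed 1000-bp tile, that carried less DNA methylation in control GMP than in control LSK cells. They were 1044 of 98054 autosomal tiles with at least 3 C positions of coverage 10 or more in all 10 libraries used. The level of a tile in a library is the summed methylated reads as a percent of all its methylated and unmethylated reads. A tile was chosen where both control GMP libraries lay below all 3 control LSK libraries and the group means were at least 20 percentage points apart. The values of the control libraries at these tiles are therefore a description and carry no test. The 5 knockout libraries played no part in the choice, and they are the subject of the report.

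DNA was taken from sorted bone marrow cells of C57BL/6 mice with floxed Dnmt3a alleles. The groups were 2 libraries of Dnmt3af/f Mx1-Cre+ (knockout) GMP, 2 of Dnmt3af/f Mx1-Cre- (control) GMP, 3 of knockout LSK and 3 of control LSK. All animals, controls included, carried the floxed alleles, and 5 poly(I:C) injections are given for every library. The series' design text gives an age of 12 months. Cre was under the Mx1 promoter, which responds to interferon and is active in blood cells and in other tissues, so deletion was not limited to LSK or GMP. Library names are the numbers of the titles. No label says whether each library came from its own animal, so a p-value here measures spread between libraries that may be technical. Methylation tables hold no expression values, so the sorted cell types could not be checked by their marker genes.

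LSK cells are the lineage-negative fraction, positive for Sca1 and cKit, of marrow, which holds the blood stem cells and the multipotent progenitors. GMP cells are committed progenitors of granulocytes and monocytes that arise from it. Methyl groups on CpG cytosines are placed anew by Dnmt3a and Dnmt3b and are copied at replication by Dnmt1. Myeloid commitment is known for local loss of methylation at regulatory DNA of granule, receptor and transcription factor genes.

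Sequence was at hand for promoters, and 5 promoters at which C positions of a chosen tile were read are shown, since the levels can be placed on their letters. Each run is the 250 bases 5′ of the gene's start, on the gene's strand, from RefSeq (GRCm38.p6). Capitals mark the CpG pairs of which at least 1 C position was read in all 10 libraries. The tile at Angptl8 was among those with the largest falls, and the other 4 genes were chosen after their values were seen.
Angptl8, chr9:21835260-21835509 (+): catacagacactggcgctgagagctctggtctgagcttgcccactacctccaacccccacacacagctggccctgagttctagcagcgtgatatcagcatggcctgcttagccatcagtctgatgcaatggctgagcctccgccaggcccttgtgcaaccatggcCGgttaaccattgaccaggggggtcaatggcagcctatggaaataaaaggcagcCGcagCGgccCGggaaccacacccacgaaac
Mcemp1, chr8:3665512-3665761 (+): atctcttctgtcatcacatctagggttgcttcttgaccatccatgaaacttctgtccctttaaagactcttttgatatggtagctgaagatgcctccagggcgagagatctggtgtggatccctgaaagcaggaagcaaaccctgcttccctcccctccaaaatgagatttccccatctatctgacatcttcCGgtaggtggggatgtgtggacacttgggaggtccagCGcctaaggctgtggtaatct
Gpld1, chr13:24942902-24943151 (+): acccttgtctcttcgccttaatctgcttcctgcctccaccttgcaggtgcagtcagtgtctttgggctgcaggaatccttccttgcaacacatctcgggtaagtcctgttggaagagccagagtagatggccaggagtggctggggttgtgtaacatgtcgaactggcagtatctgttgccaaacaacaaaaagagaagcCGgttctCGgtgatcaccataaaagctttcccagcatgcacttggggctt
Tbc1d22a, chr15:86277425-86277674 (+): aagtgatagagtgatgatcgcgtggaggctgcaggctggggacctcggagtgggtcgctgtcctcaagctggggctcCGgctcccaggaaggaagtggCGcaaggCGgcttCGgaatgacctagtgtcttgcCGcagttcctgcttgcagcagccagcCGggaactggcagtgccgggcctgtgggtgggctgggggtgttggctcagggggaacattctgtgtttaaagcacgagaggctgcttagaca
Kcnip3, chr2:127522095-127522344 (-): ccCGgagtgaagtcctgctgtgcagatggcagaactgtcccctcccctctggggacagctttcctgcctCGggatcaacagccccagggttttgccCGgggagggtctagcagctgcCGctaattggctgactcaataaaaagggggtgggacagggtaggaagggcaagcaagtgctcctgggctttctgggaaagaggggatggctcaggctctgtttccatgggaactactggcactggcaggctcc
Every one of these C positions matched the C, or on the other strand the G, of the printed letters.

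At the Angptl8 promoter, of a secreted regulator of plasma triglycerides, all 4 CpG pairs that were read went the same way. Pooled levels at -85, -30, -25 and -20 from the start were 17.6%, 25.5%, 20.2% and 31.9% in knockout GMP, and 96.5%, 96.4%, 94.0% and 97.6% in knockout LSK. The control cells were at 12.0%, 11.6%, 8.99% and 11.5% in GMP and at 90.9%, 91.3%, 91.1% and 91.4% in LSK. At the Mcemp1 promoter, of a membrane protein of mast cells and other myeloid cells, the position at -58 stood at 34.0% in knockout GMP and 81.9% in knockout LSK, and that at -21 at 44.6% and 83.9% in the same cells. The control cells had 17.9% and 27.6% there in GMP and 90.5% and 89.3% in LSK. The promoter of Gpld1, which encodes a phospholipase that cleaves GPI anchors, held 8.55% and 9.15% at -50 and -43 in knockout GMP, against 68.8% and 65.04% in knockout LSK. The control cells had 5.13% and 5.04% there in GMP and 72.4% and 69.6% in LSK. The whole Gpld1 tile was higher in GMP, at 31.1% in knockout and 29.6% in control cells, with 75.9% and 74.7% in LSK.

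The 7 positions read in the Tbc1d22a promoter did not move evenly. That at -152 held 78.2% in knockout GMP and 89.0% in knockout LSK, while the other 6 held 30.3% to 55.7% in knockout GMP and 78.5% to 86.5% in knockout LSK. The Tbc1d22a tile averaged 43.5% in knockout GMP, 41.9% in control GMP, 82.1% in knockout LSK and 84.6% in control LSK. Kcnip3, which encodes a calcium-binding partner of potassium channels, shows the opposite case, a tile at which knockout LSK was already low. Its tile had 45.1% and 46.8% in knockout GMP 178 and 179, 50.4% and 51.1% in control GMP 346 and 349, 56.4%, 50.3% and 43.3% in knockout LSK 1327, 1333 and 1334, and 77.1%, 70.0% and 78.2% in control LSK 1326, 1330 and 1331. The knockout GMP libraries lay within the range of knockout LSK (-4.06 points, SE 4.72, adjusted p = 0.966), and all 5 knockout libraries lay below all 3 control LSK libraries.

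Coverage summed over the listed C positions came to 95.4 to 109.7 M (M, 1e6) in a GMP library and 157 to 181 M in an LSK library, where a read counts once at each C position it covers. The median position had 50 to 59 reads in a GMP library and 85 to 103 in an LSK library. The coverage summed over the C positions of a chosen tile had a median of 257 to 317.5 in a GMP and 352.5 to 433.5 in an LSK library. Reads carry no molecular identifiers. A segment of Dnmt3a (chr12:3903653-3904031, GRCm38) was taken as the deleted one. It spans the 5 C positions of the gene that were listed, at 10 reads or more, in every control library and in no knockout LSK library. Their presence in the controls and absence from knockout LSK were thus fixed by the choice, and only the knockout GMP libraries are informative. Knockout GMP 178 listed 4 of them and 179 listed 5, with a coverage relative to the flanks of 27.9% and 53.3% of the control GMP mean. Both knockout GMP libraries thus kept reads over the segment, and the part of these in the GMP values below was not tested. LSK and GMP libraries share no numbers. In 123 windows of 5 Mb, C positions had 20 reads or more in all libraries of one group and were listed in none of another. Such positions numbered at least 10 in a window, and at least 1% of the number of C positions there common to the 10 libraries. These windows held 16.6% of all tiles and 170 (16.3%) of the 1044 chosen tiles.

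The knockout libraries split by cell type as the controls did. Averaged over the 1044 tiles, methylation was 39.2% and 38.9% in knockout GMP 178 and 179, 36.6% and 38.7% in control GMP 346 and 349, 65.9%, 62.9% and 62.8% in knockout LSK 1327, 1333 and 1334, and 70.8%, 70.5% and 70.9% in control LSK 1326, 1330 and 1331. Both knockout GMP libraries lay above both control GMP libraries, and all 3 knockout LSK libraries lay between GMP and control LSK. As group values these were 39.1% ± 0.182 (SD, n = 2), 37.6% ± 1.47 (n = 2), 63.9% ± 1.73 (n = 3) and 70.7% ± 0.205 (n = 3). Over all 98054 tiles the corresponding means were 60.6%, 61.9%, 60.5% and 62.3%, so the cell types were close there.

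**Figure D1:**
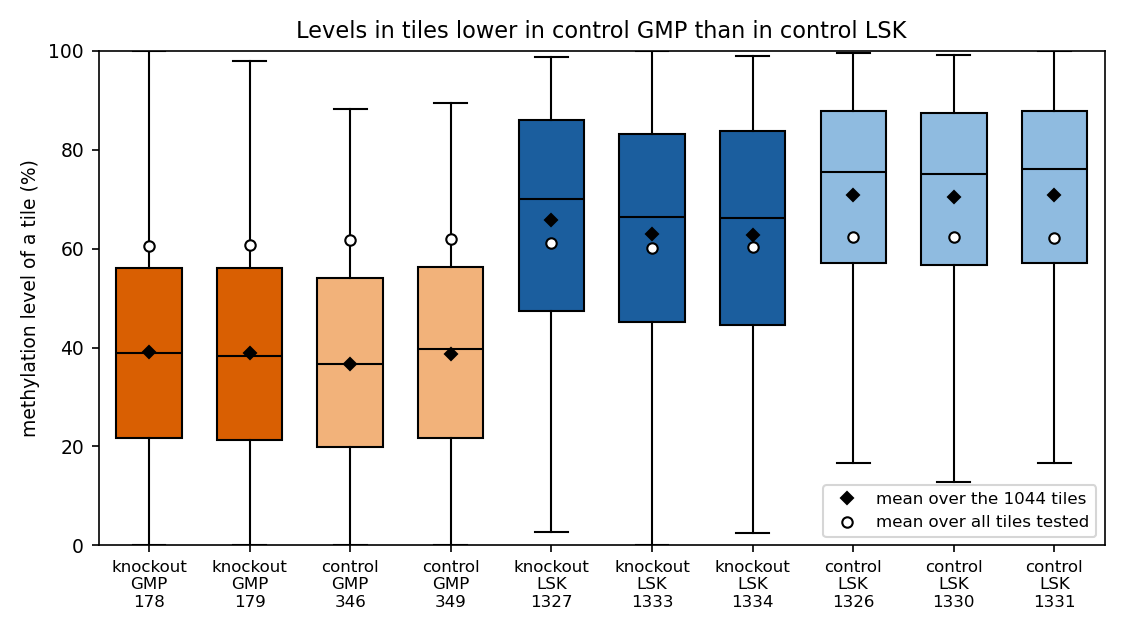
Box plots of the methylation level (%, y axis) of the 1044 tiles in each of the 10 libraries (x axis; boxes are quartiles, whiskers the full range), with the mean over the 1044 tiles (diamond) and over all 98054 tiles (circle). The diamonds of the 4 GMP libraries lie between 36.6% and 39.2% and those of the 3 knockout LSK libraries between 62.8% and 65.9%, below the control LSK libraries, while the circles are nearly level.

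The difference between the knockout cell types, knockout GMP minus knockout LSK, averaged -24.8 points over the 1044 tiles (median -23.1, quartiles -34.6 and -13.4) against 0.0815 points over all tiles. It was below 0 at 997 tiles (95.5%), against 53.3% of all tiles. It was at or beyond -20 points at 595, against 832 of all 98054 tiles. Among all 98054 tiles, 494 (0.504%) passed as lower in knockout GMP, at an adjusted p under 0.05 and a difference of 20 points or more. Of the 1044, 416 (39.8%) passed, which is 84.2% of the 494. As higher in knockout GMP, 135 tiles (0.138% of all) passed and 0 of the 1044 did by the moderated quasi-binomial test, against 2 by Fisher's exact test on pooled reads. At an unadjusted p under 0.05, 818 of the 1044 were lower and 4 were higher, against 6654 of all 98054 tiles in either direction. Both knockout GMP libraries lay below all 3 knockout LSK libraries at 869 of the 1044 tiles (83.2%), and at 15.8% of all tiles.

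The count rested on few libraries. With only knockout GMP 179 kept (178 left out), 145 of the 1044 passed as lower, and with only 178 kept, 73. There the lone GMP library was assumed to vary like the LSK libraries. Without knockout LSK 1333 the tiles that passed as lower numbered 777 in all, 588 of them among the 1044. The mean difference over the 1044 tiles stayed between -25.3 and -23.8 points with any 1 of the 5 knockout libraries left out. With 1 control library left out the tiles were chosen anew, 1049 to 1305 of them. The mean over those tiles was -24.5 to -20.3 points. The 78 tiles that passed as lower but were not among the 1044 had a mean control difference of -12.3 points, against -0.370 points over all tiles.

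**Figure D2:**
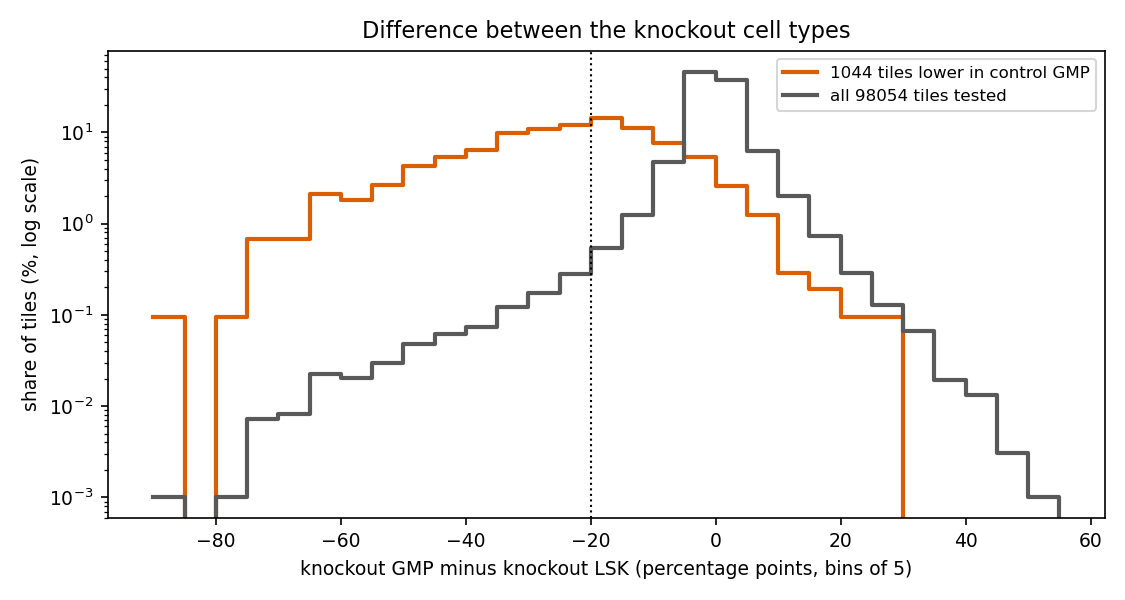
Distribution of knockout GMP minus knockout LSK (percentage points, x axis, bins of 5) over the 1044 tiles and over all 98054 tiles, as a percent of each set on a log scale (y axis); the dotted line marks -20 points. The 1044 tiles spread from -85.5 to 28.0 points with a median of -23.1, and all tiles centre near 0.

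Tiles that fell more in controls also fell more in knockouts. Where the control means were 20 to 25 points apart (369 tiles), the mean knockout difference was -13.6 points and 46 tiles (12.5%) passed. At 25 to 30 points (184 tiles) it was -20.6 points and 29.9% passed, and at 30 to 40 points (252 tiles) it was -26.1 points and 47.6% passed. At 40 to 50 points (118 tiles) the mean was -35.9 points with 72.9% passing, and at 50 points or more (121 tiles) it was -51.9 points with 109 tiles (90.1%) passing. In every class the knockout difference was smaller in size than the control difference, which had chosen the tiles and averaged -22.4, -27.5, -34.6, -44.7 and -60.0 points. By the level in control LSK, the share that passed was 25.3% of 99 tiles at 20% to 40%, 24.4% of 197 at 40% to 60% and 60.2% of 191 at 90% or above.

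**Figure D3:**
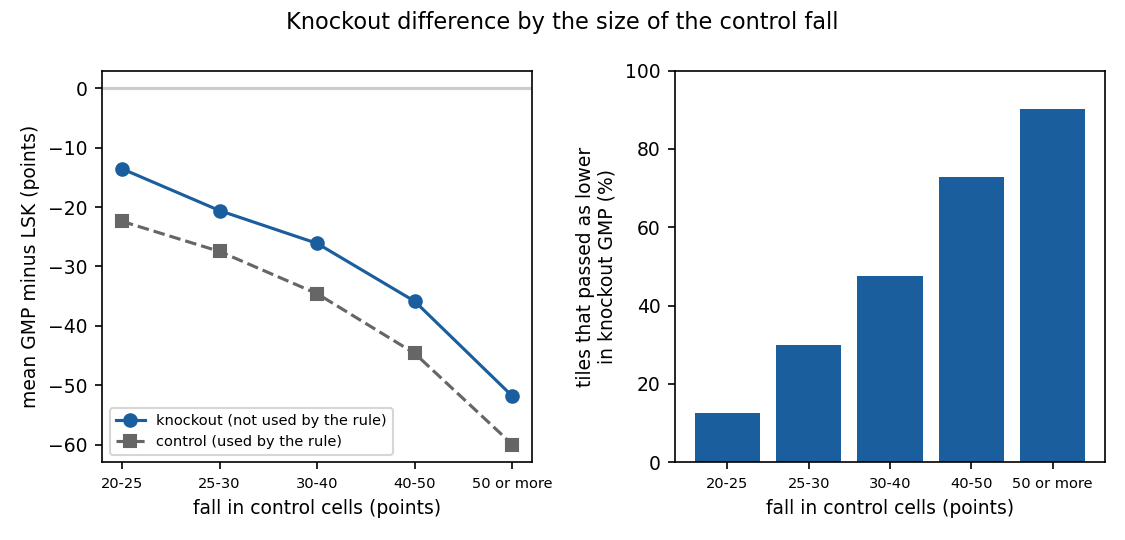
Left, mean GMP minus LSK (points, y axis) in knockout and in control cells for tiles grouped by the size of the control fall (points, x axis). Right, the percent of tiles that passed as lower in knockout GMP, in the same classes. The knockout mean goes from -13.6 to -51.9 points and the passing share from 12.5% to 90.1%.

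Genes of the granulocyte and monocyte lineage held several of these tiles. Of 67 tiles tested at 25 granule and mature myeloid genes, 8 (11.9%) were among the 1044, and 4 of the 8 passed as lower in knockout GMP. They lay at Mpo (2 tiles), Ctsg and Alas1. The other 4 lay at Ncf1, Prss57, Cd63 and Calr. Of 129 tiles at 21 myeloid transcription factor genes, 6 (4.65%) were among the 1044, at Spi1, Cebpb, Cebpe and Irf8, and 1 passed. Across all tiles 1044 of 98054 (1.06%) were chosen by the same rule. Some genes of the lists came from earlier results of these data, so these shares are a description and were not tested. The granule list also holds Alas1, an enzyme of haem synthesis, and Calr, a chaperone, with 1 chosen tile each. The median knockout difference was -26.0 points over the 8 and -21.1 over the 6, against -0.617 and -0.146 over all tiles of the same genes and -0.0758 over all tiles tested.

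Mpo encodes myeloperoxidase, the peroxidase of azurophil granules, and both tiles tested at it had been chosen. The second (chr11:87801001-87802000, in the gene) had 58.1% and 54.6% in knockout GMP 178 and 179, 64.2% and 61.5% in control GMP, 95.4%, 92.3% and 94.6% in knockout LSK 1327, 1333 and 1334, and 95.8%, 96.0% and 93.9% in control LSK. Knockout GMP lay far below knockout LSK, with no overlap, and of the knockout LSK libraries 1333 alone lay below the lowest control LSK library. The difference of -37.7 points (SE 4.24) passed at an adjusted p of 0.000757 (6.02e-06 to 0.0841 with each knockout library left out, above 0.05 without 179). Its positions were unlike: those at 87801196 and 87801214 were at 29.0% and 19.6% in knockout GMP and 92.6% and 93.9% in knockout LSK, while the other 5 were at 69.4% to 84.0% in knockout GMP.

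The first Mpo tile (chr11:87799001-87800000) had 69.6% and 54.4% in knockout GMP, 51.4% and 47.1% in control GMP, 89.1%, 87.2% and 92.5% in knockout LSK, and 91.5%, 88.6% and 93.2% in control LSK. Here both knockout GMP libraries lay above both control GMP libraries and below all LSK libraries. Its difference between the knockouts was -27.6 points (SE 5.06, adjusted p = 0.0141), but it did not pass without 178, 179 or LSK 1334 (0.000508 to 0.823 with 1 library left out).

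Ctsg encodes cathepsin G, a serine protease of the same granules. Its tile (chr14:56100001-56101000) had 49.6% and 44.4% in knockout GMP, 48.2% and 56.0% in control GMP, 90.8%, 91.0% and 86.9% in knockout LSK, and 91.5%, 89.8% and 89.9% in control LSK. The knockout difference was -42.6 points (SE 4.57, adjusted p = 0.000890, and 0.109 without 179, the highest with 1 library left out, the lowest being 2.17e-05). The tile at the start of Alas1, the first enzyme of haem synthesis, passed with each library left out (chr9:106246001-106247000). It held 36.4% and 49.6% in knockout GMP, 52.8% and 49.1% in control GMP, 96.2%, 90.4% and 92.9% in knockout LSK, and 88.7%, 90.9% and 93.2% in control LSK, and the knockouts differed by -50.2 points (SE 4.57, adjusted p = 0.000894).

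The other 4 granule and mature myeloid tiles did not pass. That at Prss57, a serine protease of neutrophil granules, differed by -24.4 points (SE 5.42, adjusted p = 0.0614) and passed without LSK 1333, and that at Ncf1, a subunit of the phagocyte NADPH oxidase, by -24.3 points (SE 7.74, adjusted p = 0.241), which also passed without 1333. Ncf1 had 49.1% and 23.5% in the knockout GMP libraries, a wide spread, and the lowest knockout LSK library had 50.4%. The tiles at Calr, a chaperone of the endoplasmic reticulum, and Cd63, a tetraspanin of granule membranes, differed by -15.7 and -6.56 points (adjusted p = 0.242 and 0.966).

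Cebpe encodes a factor needed for late granulocyte maturation, and both of its tiles had been chosen. At the tile chr14:54712001-54713000 knockout GMP had 31.2% and 24.3%, control GMP 26.8% and 28.5%, knockout LSK 58.9%, 54.9% and 48.4%, and control LSK 68.6%, 70.9% and 72.8%. The 4 groups stood apart except that knockout and control GMP overlapped. The knockout difference of -26.3 points had an adjusted p of 0.0514 (SE 5.29), and the tile passed without 1333. The adjacent tile differed by -19.9 points (SE 3.22, adjusted p = 0.00945), under the 20 points required, and passed without 1334 (-21.1 points). In the tile chr14:54712001-54713000 the position at 54712095, 1 of 7, was at 6.67% in knockout GMP, 15.2% in control GMP, 4.82% in knockout LSK and 70.1% in control LSK. These levels rest on 30, 46, 83 and 67 reads in the same order, pooled over the libraries of a group.

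The tile at the start of Cebpb, a factor of stress granulopoiesis, had 23.6% and 28.5% in knockout GMP, 29.7% and 25.3% in control GMP, 58.9%, 46.6% and 57.3% in knockout LSK, and 81.4%, 61.3% and 68.1% in control LSK. It passed (-28.2 points, SE 5.03, adjusted p = 0.0351), but not without any 1 of 178, 179, 1327 or 1334 (0.000928 to 0.485 with 1 library left out). Spi1 encodes PU.1, the main transcription factor of myeloid commitment. Its tile chr2:91113001-91114000 had 4.17% and 12.2% in knockout GMP, 30.8% and 36.8% in control GMP, 26.9%, 38.1% and 26.1% in knockout LSK, and 54.9%, 49.4% and 65.4% in control LSK.

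At this Spi1 tile the knockout libraries of each cell type lay about as far below their controls as GMP lay below LSK, and knockout LSK overlapped control GMP. The knockout difference was -22.2 points (SE 5.02, adjusted p = 0.262), and the second Spi1 tile differed by -14.9 points (adjusted p = 0.475). Irf8, a factor of monocyte and dendritic cell development, had 1.21% and 7.66% in knockout GMP, 0.637% and 0.990% in control GMP, 12.3%, 9.16% and 7.53% in knockout LSK, and 24.7%, 18.3% and 27.2% in control LSK. Knockout LSK was below control LSK in every library and overlapped knockout GMP (-5.23 points, SE 3.18, adjusted p = 0.953).

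**Figure D4:**
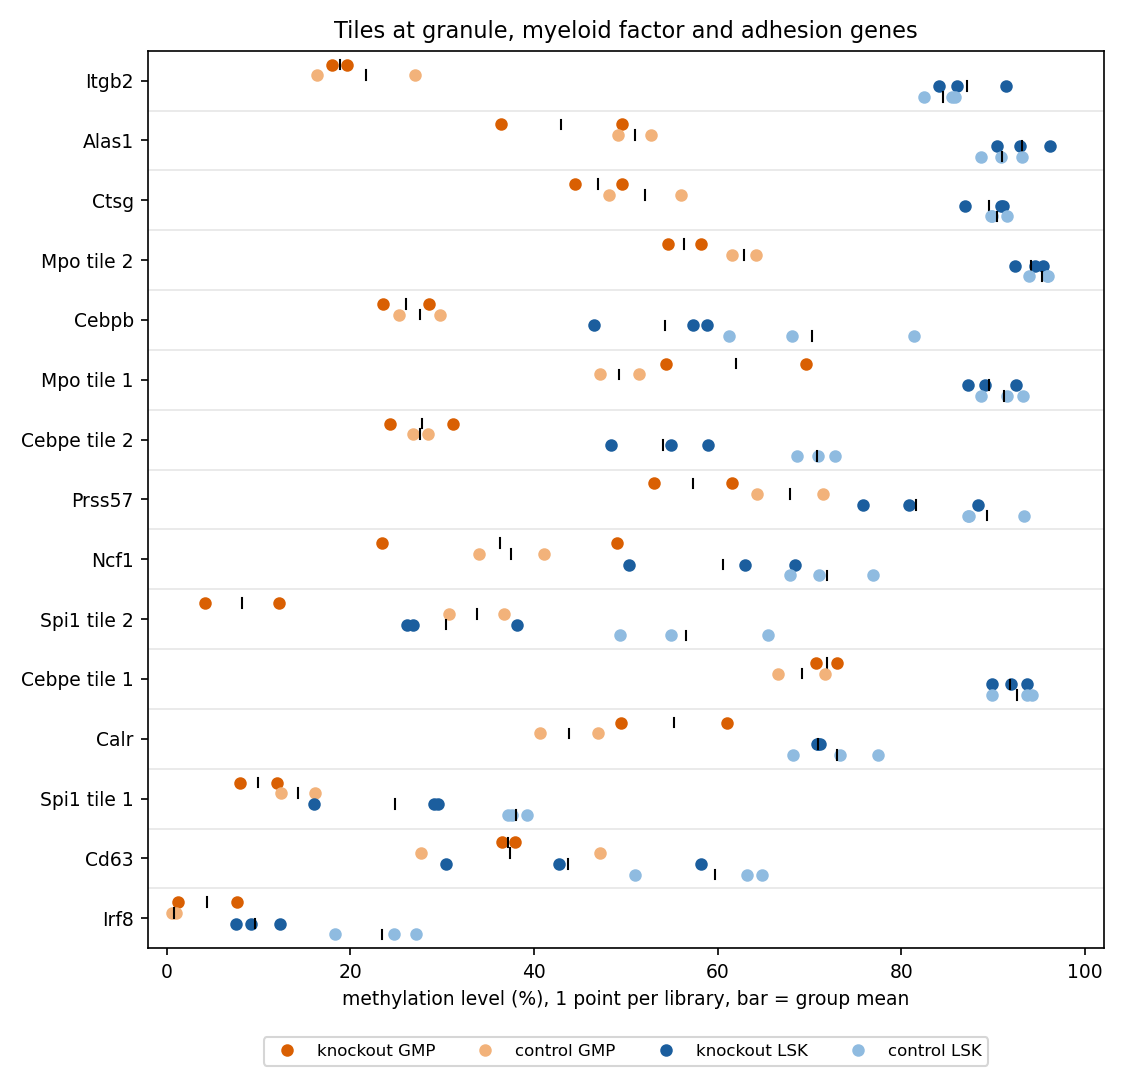
Methylation level (%, x axis) in each library at the tiles of the granule and mature myeloid genes, the myeloid transcription factors and Itgb2 (rows; tile 1 and tile 2 in order of position), with points coloured by group and a bar at each group mean. At Itgb2, Alas1, Ctsg and Mpo the knockout LSK points lie with the control LSK points, at 84.1% or above, and the knockout GMP points at 69.6% or below, while at Spi1, Cebpb and Irf8 the knockout LSK points lie below the control LSK points.

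Among adhesion and homing genes 1 of 76 tiles had been chosen. It lies in Itgb2 (chr10:77548001-77549000), which encodes the shared beta chain of the leukocyte integrins. Knockout GMP had 18.0% and 19.6%, control GMP 16.4% and 27.02%, knockout LSK 91.4%, 86.0% and 84.1%, and control LSK 85.4%, 82.4% and 85.9%. The knockout difference of -68.3 points (SE 3.97) had an adjusted p of 0.000252 and passed with each library left out (5.05e-07 to 0.0265). All 6 positions of the tile were low in knockout GMP, at 11.4% to 32.3%, and high in knockout LSK, at 78.6% to 93.6%.

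Of 201 tiles at cytokine receptor and signalling genes 6 (2.99%) had been chosen and 3 passed. They lay in Tnfrsf1a, a receptor of TNF (-41.0 points, SE 5.84, adjusted p = 0.00911, not passing without 178 or 179), in Flt3, a receptor kinase of early progenitors (-30.7 points, SE 4.50, adjusted p = 0.0169, not passing without 178, 179 or 1334), and in Pik3c2b, a phosphoinositide 3-kinase. With 1 library left out, their adjusted p ranged from 0.000567 to 0.200 at Tnfrsf1a and from 0.00101 to 0.609 at Flt3. The Tnfrsf1a tile lies in one of the 123 windows. The tiles at Ptpn6, a phosphatase that dampens receptor signals, Fgr, a Src-family kinase, and Il17ra, a chain of the interleukin-17 receptor, differed by -16.8, -16.2 and -13.0 points and did not pass (adjusted p = 0.880, 0.357 and 0.893).

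Of 469 tiles at stem cell genes 6 (1.28%) had been chosen, that of Flt3 and 5 in Gse1, which had the most chosen tiles of any gene (5 of its 109). The share of this list thus rests on Gse1. Some genes of the lists came from earlier results of these data, so the shares of the lists are a description. Of the 6 tiles, Flt3 and 1 in Gse1 (chr8:120378001-120379000) passed. Gse1 there had 25.9% and 21.01% in knockout GMP, 15.6% and 19.5% in control GMP, 55.5%, 61.2% and 57.9% in knockout LSK, and 67.2%, 76.5% and 77.7% in control LSK (-34.7 points, SE 4.44, adjusted p = 0.00560, and 0.000613 to 0.283 with 1 library left out, not passing without 178 or 179). The other 4 Gse1 tiles differed by -29.5 to -1.14 points, and that at -29.5 passed without 1333.

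Over all tiles 1.06% had been chosen. At erythroid and megakaryocyte genes 0 of 143 tiles had been chosen, and at lymphoid genes 1 of 215 (0.465%), and these counts were not tested against that share. The lymphoid tile lies in Dntt, the polymerase that adds bases at antigen receptor joints (-13.4 points, SE 5.25, adjusted p = 0.648). Of 84 tiles at DNA methylation genes 2 had been chosen. That at Gadd45a, a stress-induced gene, passed (-27.0 points, SE 4.23, adjusted p = 0.0318, and 0.00377 to 0.631 with 1 library left out, not passing without 178, 179 or 1334). It also covers the start of E230016M11Rik. That in Tet1, which oxidises methylcytosine, had 43.1% and 51.1% in knockout GMP, 54.3% and 40% in control GMP, 44.7%, 45.8% and 51.9% in knockout LSK, and 68.5%, 77.3% and 69.4% in control LSK. All 5 knockout libraries and both control GMP libraries lay in 1 range there, below all 3 control LSK libraries (-0.398 points between the knockouts, SE 5.47).

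Of 379 tiles at chromatin and leukaemia genes 9 (2.37%) had been chosen, 5 of them in Gse1, and 2 passed, those of Flt3 and Gse1 already given. The 2 tiles in Zbtb16, which encodes the zinc finger factor PLZF, differed by -13.0 and 9.31 points and that in Setbp1 by -12.3 points, none passing. The lists overlap, and Flt3 and Gse1 are counted in each list that holds them. Besides Gse1, 6 genes held 3 chosen tiles each, and 1 of the 3 passed in Cacna1d, Cmip, Fndc3b, Igf1r and Pxn but 0 in Cela1. The tile that passed in Pxn, which encodes the focal adhesion protein paxillin, fell by 38.5 points (SE 4.07, adjusted p = 0.00144, and 2.60e-05 to 0.103 with 1 library left out, not passing without 179). In Igf1r, the receptor of insulin-like growth factor 1, the tile that passed had 3.19% and 2.10% in knockout GMP, 7.86% and 0.183% in control GMP, 37.1%, 24.2% and 27.5% in knockout LSK and 44.9%, 35.2% and 31.4% in control LSK (-27.0 points, adjusted p = 0.00347, and 3.75e-05 to 0.200 with 1 library left out, not passing without 178 or 179).

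The steepest falls among the knockouts, near Cog6 and in Uggt1, went from high to low methylation at tiles with 3 C positions each, the fewest allowed. The largest was at chr3:52854001-52855000, between genes and 127123 bp from Cog6, the nearest coding gene, with 1.54% and 9.26% in knockout GMP, 0% and 2.17% in control GMP, 88.0%, 92.3% and 92.6% in knockout LSK, and 91.1%, 91.7% and 88.3% in control LSK. It differed by -85.5 points (SE 3.10, adjusted p = 0.000251). In Uggt1, whose product checks glycoprotein folding (chr1:36233001-36234000), the levels were 8.18% and 15.4% in knockout GMP, 5.12% and 5.30% in control GMP, 89.3%, 97.8% and 84.9% in knockout LSK, and 88.6%, 88.5% and 92.7% in control LSK, a difference of -78.8 points (SE 4.41, adjusted p = 0.000348). GMP and LSK did not overlap at either tile in either genotype.

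The next largest falls that passed were at a tile 8083 bp from Gm42372 (-72.5 points), in Sema4d, a semaphorin of immune cells (-72.4), in Rreb1, a zinc finger factor (-71.9), at the start of Angptl8 (-71.3), 2331 bp from Cxcl9, a chemokine induced by interferon gamma (-70.4), 54801 bp from Ola1 (-70.2), in Xkr5 (-70.1) and in Gm807 (-68.6). Their adjusted p-values lay between 0.000300 and 0.00748. Mean levels in knockout GMP ranged from 7.60% near Gm42372 to 24.4% at Angptl8. The tiles near Gm42372 and in Sema4d and Gm807 also had 3 C positions each. The tile near Cxcl9 lies in one of the 123 windows. Those at Sema4d, Angptl8 and Xkr5 did not pass without 179 (adjusted p = 0.0540, 0.0609 and 0.0690, with lows of 3.88e-06, 2.56e-06 and 2.17e-05 without another library), and that in Rreb1 not without 178 or 179 (4.11e-05 to 0.185). Of the 10 tiles with the largest control falls 7 are among these, and the other ones, in Lrpap1, Sec22b and Gnat2, differed between the knockouts by -64.1, -65.2 and -64.1 points and passed with each library left out.

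At 47 of the 1044 tiles knockout GMP was not below knockout LSK, and none of those passed as higher. The highest difference was in Magi1, a scaffold of cell junctions (chr6:93727001-93728000), with 52.1% and 54.0% in knockout GMP, 16.0% and 32.9% in control GMP, 27.7%, 30.1% and 17.4% in knockout LSK, and 56.2%, 51.7% and 38.6% in control LSK. GMP was above LSK among the knockouts and below it among the controls, both without overlap. The knockout difference was 28.0 points (SE 6.54, adjusted p = 0.108), and it passed without 1333 (0.0154, the lowest with 1 library left out, the highest being 1). In Pik3c3, a class III phosphoinositide 3-kinase, the value of 23.1 points came from 1 library, with 75.7% in knockout GMP 178 and 1.22% in 179, against 17.1%, 7.78% and 21.4% in knockout LSK. Without 178 the sign changed (-14.2 points), and without 179 the tile passed as higher (60.3 points, adjusted p = 0.0351, the lowest with 1 library left out, the highest being 0.972).

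The start of Snrpn, a gene expressed from the paternal allele, was another of the 10 tiles with the smallest fall or a rise. It had 48.0% and 43.4% in knockout GMP, 17.6% and 30.5% in control GMP, 41.2%, 24.8% and 39.9% in knockout LSK, and 50.6%, 48.0% and 51.5% in control LSK (10.4 points, SE 8.17, adjusted p = 0.961). Control GMP 346 was the lowest of the 10 libraries. In Slc17a5, a lysosomal transporter, the value of 11.4 points turned to -6.64 points without knockout LSK 1333, which had 43.9% against 98.8% and 97.2% in 1327 and 1334 and 91.5% and 91.3% in knockout GMP. The remaining 6 were in Sbf2, Rapgef4, Gm11266, 4930424E08Rik, Zbtb16 and Coro7, with differences of 9.22 to 17.1 points, none passing.

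In LSK, methylation at the 1044 tiles was lower in the knockout libraries than in the controls on average. Knockout LSK minus control LSK averaged -6.87 points (median -5.23). It was below 0 at 860 tiles (82.4%), against 62.1% of all tiles and 64.6% of those with a control LSK level of 20% or more. It was at or beyond -20 points at 81, against 1183 of all 98054 tiles. All 3 knockout libraries lay below all 3 controls at 328 of the 1044 tiles (31.4%), at 15.5% of all tiles, and at 15.9% of the 69823 tiles whose control LSK level reached 20% and which could have been chosen. The others of the 69823, not chosen, averaged -2.12 points. The sets differed in level: 18.3% of the 1044 tiles were at 90% or above in control LSK, against 47.5% of all tiles. The difference varied with that level, and the part of level in these contrasts was not tested. The controls that enter here were chosen for being high, so no test was made. With 1326, 1330 or 1331 left out of the choice, that library itself averaged 70.0%, 69.5% or 70.2% over the tiles then chosen, and the knockout LSK mean was 63.8%, 63.4% or 64.1%, so that knockout minus control was -6.25, -6.09 or -6.12 points.

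Placed between the controls, the knockout LSK mean was at or above the lowest control LSK library at 413 tiles (39.6%), in between at 572, and at or below the higher control GMP library at 59 (5.65%). Over these 59 tiles knockout GMP averaged 37.2%, control GMP 40.7%, knockout LSK 41.7% and control LSK 64.5%, and the knockouts differed by -4.50 points. Of the 413 tiles 244 (59.1%) passed as lower in knockout GMP, of the 572 in between 171 (29.9%), and of the 59 tiles 1. The shares rest on the same knockout LSK values that place the tiles. By library, 1327 lay below all 3 control LSK libraries at 48.9% of the 1044 tiles, 1333 at 60.4% and 1334 at 62.3%. These controls were chosen for being high, and the shares by library were not taken over all tiles, so they are a description only. The difference was largest in size at intermediate control LSK levels, -9.89 points over 197 tiles at 40% to 60%, against -6.85 over all tiles of that level, and -2.53 points over 191 tiles at 90% or above, against -0.998. At 20% to 40% it was -6.71 points, against -5.98 over all tiles of that level. At 60% to 80% and 80% to 90% it was -8.79 and -5.47 points, against -5.24 and -2.91.

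The lowest value was at chr6:116004001-116005000, 8662 bp from Plxnd1, a semaphorin receptor, with 1.23% and 6.32% in knockout GMP, 15.6% and 26.5% in control GMP, 5.41%, 0.699% and 4.19% in knockout LSK, and 42.2%, 43.9% and 50.5% in control LSK. Every knockout library was below every control library there, and knockout GMP did not stand apart from knockout LSK (0.344 points, SE 2.89, adjusted p = 0.989). In Pik3c2b (chr1:133076001-133077000) knockout GMP had 0% and 3.28%, control GMP 3.37% and 2.75%, knockout LSK 35.8%, 22.2% and 20.7%, and control LSK 73.3%, 56.2% and 66.2%. Knockout LSK lay between GMP and control LSK, with no overlap. It passed (-24.6 points, SE 4.64, adjusted p = 0.0361), but not without any 1 of 178, 179, 1327 or 1334 (0.00412 to 0.417 with 1 library left out).

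Next were tiles in Pik3r1, the regulatory subunit of class I phosphoinositide 3-kinases, with 12.0%, 11.2% and 6.75% in knockout LSK and 57.1%, 47.6% and 38.2% in control LSK, in Ctdspl, a phosphatase, with 28.4%, 57.0% and 36.0% in knockout LSK and 78.5%, 81.2% and 71.8% in control LSK, and in Rapgef3, an exchange factor activated by cyclic AMP, with 23.3%, 25.7% and 12.1% in knockout LSK and 52.2%, 51.6% and 59.5% in control LSK. None of these overlapped between genotypes in LSK, and none passed between the knockout cell types (adjusted p = 0.392, 0.896 and 0.980). The Pik3r1 tile lies in one of the 123 windows. At the other end, knockout LSK was above control LSK by 11.5 to 18.9 points in 1700025G04Rik, Apod, Acoxl and Drosha and at a tile 40382 bp from Wsb1. The tile in 1700025G04Rik held 48.6%, 68.3% and 41.1% in knockout LSK against 35.1%, 20.5% and 45.5% in control LSK, which overlap. In Drosha, the nuclear microRNA-processing enzyme, 1333 alone was high, at 93.9%, with 55.8% and 51.8% in 1327 and 1334.

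**Figure D5:**
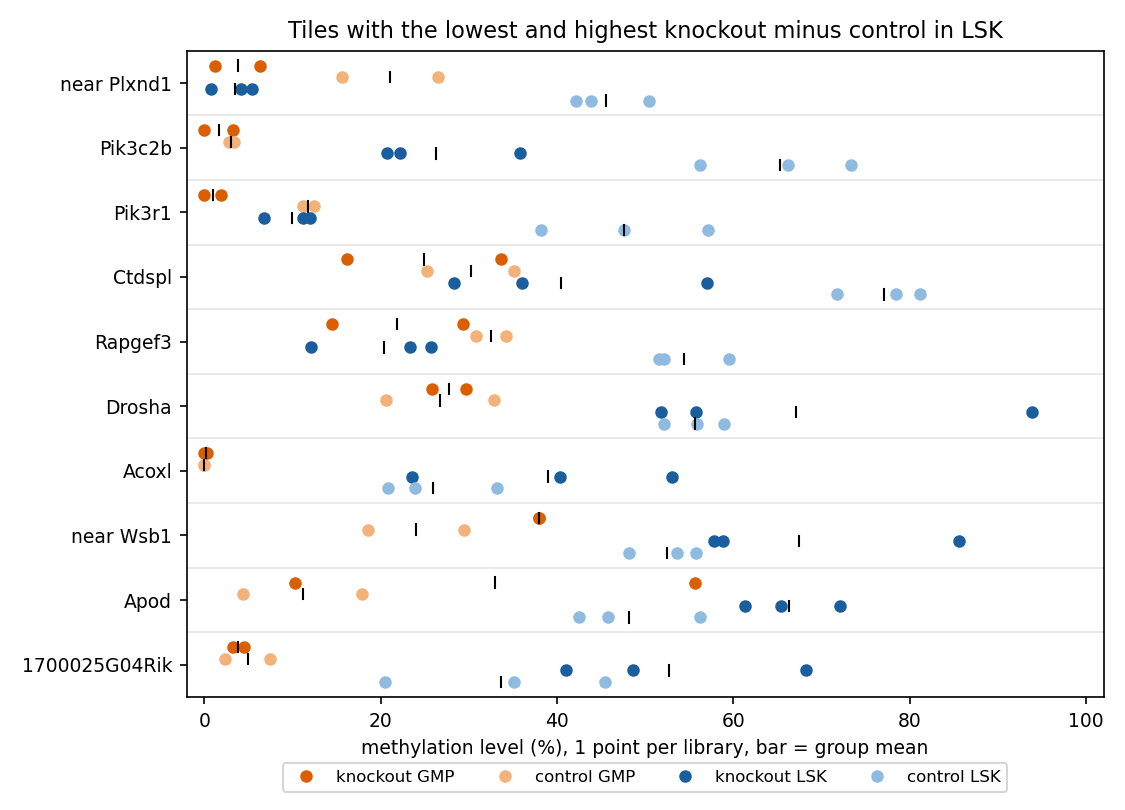
Methylation level (%, x axis) in each library at the 5 tiles with the lowest (upper rows) and the 5 with the highest (lower rows) knockout minus control difference in LSK, with points coloured by group and a bar at each group mean. In the upper rows knockout minus control LSK is -42.1 to -34.1 points, and in the lower rows the LSK genotypes overlap except at Apod and near Wsb1.

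In GMP the genotypes were nearer. Knockout GMP minus control GMP averaged 1.44 points (median 0.769). Both knockout libraries lay below both controls at 177 of the 1044 tiles (17.0%; 26.0% of all tiles) and above both at 262 (25.1%; 11.2% of all tiles). These controls were chosen for being low. With 346 or 349 left out of the choice, that library itself averaged 41.7% or 44.8% over the 1133 or 1305 tiles then chosen, against 41.0% or 43.1% in knockout GMP, a difference of -0.677 or -1.78 points. The direction of the GMP value thus turned with the controls that chose the tiles.

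By place, 86 of the 1012 chosen tiles outside chromosome 18 lay within 1000 bp of a transcription start (8.50%), 650 elsewhere in genes (64.2%) and 276 between genes (27.3%). All tiles tested outside chromosome 18 gave 21.98%, 52.2% and 25.8%, and those with a control LSK level of 20% or more gave 6.13%, 61.4% and 32.5%. The mean knockout difference was alike in the 3 places, at -22.1, -25.0 and -25.6 points, and 34.9%, 41.4% and 38.4% of their tiles passed. Each autosome held 0.855% to 1.27% of its tiles among the 1044. The chosen tiles had a median of 4 C positions, all tiles 5. An adjacent tile was tested for 281 of the 1044, and 48 had an adjacent chosen one. At the 263 adjacent tiles not chosen the mean difference was -1.40 points in knockout and -2.56 points in control cells.

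Promoter windows, from 250 bases before to 50 after a start, overlapped the 1044 tiles at 45 of the 31396 in the RefSeq table, and 8 motifs were searched in them on both strands. The E-box CAGCTG was found in 15 of the 45 (33.3%) and in 16.3% of all, the RUNX motif TGTGGT in 12 (26.7%) and 16.7%, the GATA motif AGATAA in 7 (15.6%) and 11.2%, and the CTCF core CCACTAG in 6 (13.3%) and 2.69%. The PU.1 motif GAGGAAGT was in 1 of the 45 and 3.25% of all, and TTGCAAT and TTGCGCAA, both bound by CEBP factors, in 1 and 0 of the 45 and in 2.25% and 0.178% of all. The ETS core GGAA, which the PU.1 motif contains, was in 44 of the 45 and 95.9% of all. A match describes letters in the window and is not a binding site. Of the motifs other than GGAA, the 5 printed runs hold the E-box at Angptl8 and Kcnip3 and the RUNX motif at Angptl8 and Mcemp1.

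The rule's threshold cut through a continuum. The tiles just inside it had control differences of -20.08, -20.06 and -20.01 points and knockout differences of -9.44, -25.0 and -7.14 points. Those just outside, at -19.999, -19.995 and -19.983 points in controls, had -6.20, -4.14 and -15.5 points in knockouts. The opposite set, 237 tiles at least 20 points higher in control GMP than in control LSK, was at 47.0% in knockout GMP, 66.3% in control GMP, 31.7% in knockout LSK and 39.8% in control LSK, and 45 of the 237 (18.99%) passed as higher in knockout GMP. The share of the control change seen in the knockouts was not tested between the sets.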

How the data were processed

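MspI fragments of 150 to 400 bp went through bisulfite conversion and were read for 50 bp, per the labels' protocols. Bismark and the builds mm10 and GRCm38 are in the submitters' processing notes, with no role or version. The deposited tables give each C position a coverage count and the shares of C and of T among its reads in percent, per the file headers. Every listed position had at least 10 reads, so an unlisted position is not a level of 0%. Coverage times these shares gave whole methylated and unmethylated reads.

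Tiles used the 1269891 autosomal C positions common to the 10 libraries. The title and the genotype field of GMP library 352 disagree, so it was put in no group and no test. Knockout GMP was tested against knockout LSK by a quasi-binomial logistic model with an F test. Its dispersion was moderated with squeezeVar of limma 3.58.1 in R 4.3.3 (coverage trend on a log scale), with 1 as its lower bound. The prior was taken from tiles at a pooled level of 5% to 95%, as an earlier result on these data had led to. Benjamini-Hochberg adjustment ran over all 98054 tiles. The test had 3 residual and 8.12 prior degrees of freedom and was tested on simulated data. Differences are of mean library levels, and SE is that of the difference. Other steps used Python 3.11.15.

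Genes and promoters came from RefSeq tables of GRCm38.p6. A tile was given to a gene it overlapped or lay within 1000 bp of, otherwise to the nearest coding gene. Exons were not analysed here, and starts on chromosome 18 were not used here. Members, lists and tests were chosen with earlier results of these data known, and some list genes came from those results. Named tiles were the 10 with the largest control falls, the 10 largest knockout falls that passed without overlap, the 10 smallest falls or rises, the 5 lowest and 5 highest values of knockout minus control LSK, those at list genes and at genes with most members, and those next to the threshold.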

Additional observations from a re-analysis of the deposited data

Results flagged for a closer look

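At the 1044 tiles knockout minus control had opposite signs in the 2 cell types, against the same control libraries that chose the tiles. Knockout minus control averaged -6.87 points in LSK, where all 3 knockout libraries lay below all 3 controls, and 1.44 points in GMP, where both knockout libraries lay above both controls. The difference between the cell types was not tested, since the same control libraries chose the tiles, high in LSK and low in GMP. Over tiles chosen without control GMP 346 or 349, knockout GMP minus the left-out library was -0.677 or -1.78 points. That is the sign found in LSK, so the values do not show opposite directions.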

How the results depend on the processing

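No paired analysis was possible because the library numbers are not shared between groups. Of the 1044 tiles, 416 passed as lower in knockout GMP. That count was 201 among 438 tiles with at least 5 C positions, 267 with limma on logit levels and 0 without moderation, and 73 to 588 with 1 knockout library left out; it was 291 to 595 under the other settings tried. Over all tiles, 494 passed as lower: 243 with at least 5 C positions, 329 with the prior from all tiles, 293 with limma on logit levels, 0 without moderation, 832 by Fisher's exact test on pooled reads, and 77 to 777 with 1 library left out. As higher, 135 passed: 75, 70, 45, 0 and 511 under the same settings, 266 with the spread of all 4 groups, and 2 to 267 with 1 library left out. Of the 1044, 0 passed as higher, against 1 with the spread of all 4 groups, 2 by Fisher's test and 0 to 1 with 1 library left out. Fewer tiles and libraries enter some of these settings; otherwise the cause was not tested. The rule chose 438 tiles with at least 5 C positions, 491 at 30 points, and 1049 to 1305 with 1 control library left out. The mean knockout GMP minus knockout LSK was -34.8 points over the tiles chosen at 30 points, and -25.3 to -20.3 with 1 library left out. Where that was a control library, the tiles were chosen anew without it. With 1 library left out, knockout minus control was -7.87 to -6.35 points in LSK and 1.31 to 5.58 points in GMP. The highest GMP values, 3.03 and 5.58 points, came without control GMP 346 or 349. There the 1 control GMP library left had itself been chosen low, so this range cannot show a direction. Against the left-out library the differences were -0.677 and -1.78 points. A coverage minimum of 20, tiles shifted by 500 bp, equal weight per C position and leaving out the 123 windows moved none of the means over the chosen tiles by more than the spread between libraries. Of 84 named tiles 31 passed. Besides no moderation there were 12 settings; 11 of the 31 passed in each of these that gave them a value, which was all 12 for 3 of the 11 tiles and at least 11 for the others. At 11 named tiles, none of which passed, the sign of knockout GMP minus knockout LSK changed with 1 knockout library left out. The ranges over these settings were -14.2 to 60.3 points at Pik3c3 (negative without 178), -6.64 to 20.8 at Slc17a5 (negative without 1333), -0.272 to 18.9 at Zbtb16 (chr9:48823001-48824000, negative without 179) and -0.481 to 14.9 at Coro7 (negative without 1333). They were -15.1 to 2.26 at Cacna1d (chr14:30171001-30172000, positive without 178), -13.2 to 0.645 at Cd63 (positive without 1327), -5.84 to 8.96 at Rapgef3 (negative without 179 or 1334), -3.57 to 7.54 at Cela1 (chr15:100674001-100675000, negative without 178, 1327 or 1334), -4.54 to 0.954 at Gse1 (chr8:120495001-120496000, positive without 178, 1327 or 1333), -4.41 to 3.61 at Tet1 (positive without 178 or 1334) and -2.20 to 2.88 near Plxnd1 (negative without 179 or 1333). Knockout GMP has 2 libraries, which limits the calls.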

Other observations

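GMP library 352, whose labels conflict, was put in no group and no test, and its levels stand beside those of the other libraries as a description. Over the 1028 of the 1044 tiles with at least 3 C positions read in it, its mean level was 34.9%. Over the same tiles the knockout GMP libraries 178 and 179 were at 39.1% and 38.9%, the control GMP libraries 346 and 349 at 36.5% and 38.6%, the knockout LSK libraries at 62.7% to 65.8% and the control LSK libraries at 70.4% to 70.9%. Over the 237 tiles higher in control GMP it was at 37.8%, against 44.8% and 49.2% in knockout GMP and 66.5% and 66.0% in control GMP. It listed 0 of the 5 C positions of the Dnmt3a segment.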
